A study of Mus musculus with 12 samples.

Results

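The nuclear genes for the subunits of the mitochondrial respiratory chain and ATP synthase were followed in the dorsal telencephalon (pallium) of mouse embryos at E13.5 with a deleted Rnu11 gene. Members were chosen by symbol alone: every gene named Nduf with a subunit letter and number, Sdha to Sdhd, Uqcr, Cox4 to Cox8 or Atp5 and present in all 12 tables was taken, without names containing "-ps". This gave 88 genes of the 54735 symbols measured. Complex I had 40 of them, complex II had 4, complex III had 8, complex IV had 19 and complex V had 17. A total of 80 members had a mean of at least 1 TPM (a transcript level scaled for gene length and to a fixed total per library) over the 12 libraries and were tested. The symbol rule also takes 4 processed pseudogenes in GENCODE M21 (Cox6c2, Ndufa11b, Ndufb4c and Ndufs6b), of which 3 passed the filter. Reads of such copies and of their parent genes may be split between them, so their values are uncertain. The symbols predate some changes of assignment: Ndufa4 is now counted with complex IV, and Cox7a2l acts in the joining of complexes III and IV rather than as a fixed subunit.

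The 12 libraries came from 4 embryos of each of 3 genotypes, all of strain C57/Bl6 and all carrying Emx1-Cre. Control embryos were Rnu11wt/flx::Trp53wt/wt::Emx1-Cre+, so they too could lose 1 copy of Rnu11. The cKO embryos were Rnu11flx/flx::Trp53wt/wt::Emx1-Cre+, and the dKO embryos were Rnu11flx/flx::Trp53flx/flx::Emx1-Cre+. The product of Rnu11 is U11, which is the small nuclear RNA that recognises the start of minor introns, a rare class, and that of Trp53 is p53. Emx1-Cre acts in progenitors of the dorsal telencephalon and the cells derived from them, so blood, vessel and microglial cells of the same tissue keep the intact alleles. The series title places the work on microcephaly after impaired minor splicing and on its partial rescue by loss of p53. Nothing in the labels says whether same-numbered embryos were littermates, and p-values measure the spread between these embryos.

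Complexes I to IV pass electrons from NADH and succinate to oxygen and, except for complex II, pump protons across the inner mitochondrial membrane. Complex V, the ATP synthase, uses the returning protons to make ATP. Complexes I, III, IV and V are mosaics: a few of their proteins are made inside the mitochondrion from mitochondrial DNA, and the other subunits are made in the cytosol from nuclear genes and imported. Complex II is built from nuclear genes alone. Several subunits of complexes IV and V come in isoforms used in different tissues, such as muscle, lung or testis. The transcription factors NRF1, GABP (of the ETS family) and YY1 are known to bind near the starts of many of these genes.

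Promoter windows from RefSeq (GRCm38.p6, the same build as mm10) were found for 66 of the 88 members. Each window runs from 250 bases before to 50 bases after a gene's start. The NRF1 core GCGCANGCG, on either strand, stood in the windows of 20 of the 66 members (30.3%) and in those of 7.03% of all 27025 genes with a window. The ETS core CCGGAAG stood in 16 members (24.2%) and in 9.93% of all genes. The YY1 core AANATGGCG stood in 10 members (15.2%) and in 2.76% of all genes. The GC box GGGCGG stood in 26 members (39.4%) and in 38.2% of all genes. At least 1 of the NRF1, ETS and YY1 cores stood in 38 of the 66 members, a combined count for which no share over all genes is given. By complex, the NRF1 core was in 8 of 32 windows of complex I, 2 of 3 of complex II, 2 of 5 of complex III, 1 of 13 of complex IV and 7 of 13 of complex V. The YY1 core was in 7 windows of complex I and 3 of complex V, and in none of complexes II, III and IV. A match describes these letters and is no evidence of binding.
The upstream bases of 1 member per complex are shown for these motifs, together with those of Cox6b2, the member with the largest difference between genotypes. The member shown for a complex had the most NRF1, ETS and YY1 matches in these bases, with ties going to the higher mean TPM. These stretches are therefore not typical of their complexes, and Cox6b2 was not picked by matches. Each stretch is read 5′ to 3′ on the gene's strand, is cut where an annotated exon begins, and has its NRF1 and ETS cores in capitals.
Ndufa11 (chr17:56717686-56717761, plus strand): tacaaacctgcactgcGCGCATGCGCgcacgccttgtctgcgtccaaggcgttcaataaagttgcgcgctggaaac
Sdhd (chr9:50603850-50603909, minus strand): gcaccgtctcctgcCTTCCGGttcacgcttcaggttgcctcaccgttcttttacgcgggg
Uqcrh (chr4:116075072-116075268, minus strand): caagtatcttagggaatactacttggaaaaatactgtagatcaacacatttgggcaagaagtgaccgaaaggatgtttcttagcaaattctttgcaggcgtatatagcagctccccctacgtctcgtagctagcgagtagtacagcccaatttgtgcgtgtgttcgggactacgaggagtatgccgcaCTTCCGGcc
Cox6a1 (chr5:115348982-115349129, minus strand): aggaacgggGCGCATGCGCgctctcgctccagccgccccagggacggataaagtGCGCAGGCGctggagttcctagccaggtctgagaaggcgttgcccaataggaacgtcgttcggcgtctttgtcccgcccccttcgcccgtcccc
Atp5e (chr2:174464106-174464301, minus strand): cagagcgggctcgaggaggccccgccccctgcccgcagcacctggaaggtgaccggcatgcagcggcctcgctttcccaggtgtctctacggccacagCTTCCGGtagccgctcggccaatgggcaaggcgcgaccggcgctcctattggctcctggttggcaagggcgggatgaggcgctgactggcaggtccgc
Cox6b2 (chr7:4753095-4753225, minus strand): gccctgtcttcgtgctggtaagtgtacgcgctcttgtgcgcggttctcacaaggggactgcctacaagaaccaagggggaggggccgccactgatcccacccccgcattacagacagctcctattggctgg
The capitals in Ndufa11 and the first capitals in Cox6a1 are the same palindromic core read on both strands. Cox6a1 has a second NRF1 core further on. Sdhd, Uqcrh and Atp5e each show 1 ETS core, on the strand opposite to the gene. The Cox6b2 stretch held none of the NRF1, ETS and YY1 cores, and neither did its full window, which did hold a GC box.

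The targeted gene followed the labels: Rnu11 stood at 521 to 724 TPM in the controls, 115 to 159 TPM in cKO and 142 to 199 TPM in dKO. Trp53 stood at 2.63 to 6.37 TPM in the controls, 3.92 to 4.83 TPM in cKO and 0.92 to 1.49 TPM in dKO. The libraries are of total RNA. Protein-coding genes outside mitochondrial DNA made up 14.6% to 16.3% of the TPM in the controls, 16.1% to 20% in cKO and 14.4% to 15.5% in dKO. The coding share and protein-coding totals named below are of these genes. TPM sums to a fixed total, so levels of coding genes also depend on the coding share. The median log2 difference over all 11764 genes tested was 0.25 for cKO against control as deposited. Median-shift centring, in which each library is shifted by its median log2 difference from the mean library, brought this to -0.00, while giving the libraries equal protein-coding totals left it at 0.12, so differences are given on both scales. The library of cKO embryo 4 stood apart, with a coding share of 20% and a shift of 0.315. Depth is unknown, since TPM keeps none.

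The members were abundant: their median level was 42.8 TPM, against 4.89 TPM over all genes tested. Together the 80 tested members took 0.473% ± 0.0207 (SD, n = 4) of the library in controls, 0.558% ± 0.0536 in cKO and 0.503% ± 0.0464 in dKO. The lowest cKO embryo, at 0.521%, lay above the highest control, at 0.504%, while dKO overlapped both. Their transcripts are short. The median longest transcript was 1046 nt for the coding members and 3476 nt for all coding genes tested.

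In complex I, the entry point of electrons from NADH, the median member stood at 34.8 TPM over the 12 libraries. The highest was Ndufa4 at 178 TPM and the lowest was the pseudogene Ndufs6b at 6.21 TPM. Next to Ndufa4 stood Ndufc1, an accessory subunit, at 93.1 TPM. The 4 members of complex II, succinate dehydrogenase, were the most even set, from 25.5 TPM for Sdhb, the iron-sulfur subunit, to 39.0 TPM for Sdhd, a membrane anchor. The flavoprotein subunit Sdha stood at 30.9 TPM. Complex III ran from 16.1 TPM for the core subunit Uqcrc1 to 199 TPM for the hinge subunit Uqcrh, with Uqcr11 at 108 TPM. Complex IV, cytochrome c oxidase, ran from 4.02 TPM for Cox6b2 to 248 TPM for Cox6b1, the other gene for the same subunit, followed by Cox6c at 190 TPM. Complex V ran from 1.23 TPM for Atp5s to 170 TPM for Atp5k, with a median of 107 TPM. Atp5s is taken by the symbol rule but is not a structural subunit, and the next lowest was Atp5d at 16.9 TPM. Atp5e, a subunit of the central stalk, stood at 148 TPM.
Within a complex the order of neighbours can lie within the spread. In the controls, Sdhb at 26.4 ± 2.01 TPM (SD, n = 4) and Sdhc at 24.7 ± 3.08 TPM overlap. Sdha, at 31.2 ± 2.61 TPM, overlaps neither, and Uqcrh at 189 ± 16.1 TPM and Uqcrc1 at 15.0 ± 1.61 TPM are far apart.

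**Figure D1:**
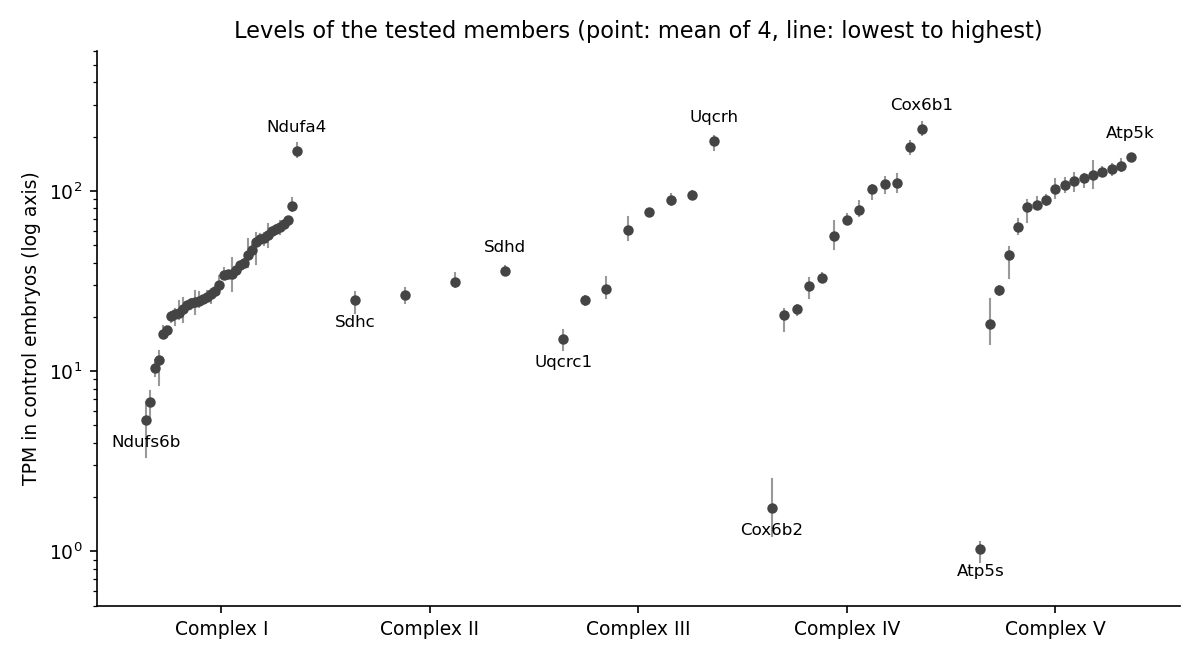
TPM of each tested member in the 4 control embryos, on a log axis, with members ordered by level within complexes I to V. Points are means and lines run from the lowest to the highest embryo. The lowest and highest member of each complex are named, and Cox6b2 and Atp5s stand well below the other members.

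Most tissue isoforms of other organs were at or near 0. Cox4i2, a form known from lung, stood between 0.0709 and 0.437 TPM in the 12 libraries, against 67.0 to 96.9 TPM for Cox4i1. All cKO embryos, at 0.283 to 0.437 TPM of Cox4i2, lay above all control and dKO embryos, but at this level the gene was not tested. The heart and muscle forms were as low. Cox6a2 was listed at 0 in 10 of the 12 libraries and did not pass 0.0818 TPM, while Cox6a1 stood at 110 TPM on average. Cox7a1 stood between 0 and 0.668 TPM, against a mean of 120 TPM for Cox7a2. Cox8b was listed at 0 in 11 libraries and Cox8c, a form known from testis, in all 12, while Cox8a averaged 120 TPM. Cox7b2 and the pseudogene Ndufa11b averaged 0.0408 and 0.165 TPM. Ndufa4l2, known as a hypoxia-responsive relative of Ndufa4, averaged 0.379 TPM. These 8 members were not tested.
The c-ring of the ATP synthase is made from a protein encoded by Atp5g1, Atp5g2 and Atp5g3, which differ in the part that is removed after import. In controls Atp5g3 gave 52.8% ± 5.0 (SD, n = 4) of their summed TPM, Atp5g2 28.9% ± 5.15 and Atp5g1 18.3% ± 0.735. In cKO the Atp5g1 share was 19.4% to 24.4% against 17.3% to 18.9% in controls, so the groups did not overlap, but an exact permutation test, two-sided, returned p = 0.0286, the smallest that 4 against 4 embryos allow, and an adjusted p of 0.114 over the 12 share tests made. No share test passed after adjustment.

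The score of a complex was the mean log2(TPM + 1) of its tested members. In cKO every score was above the control mean as deposited. Complex I stood at 5.02 ± 0.0480 (SD, n = 4) in controls and 5.27 ± 0.105 in cKO, a difference of 0.25, and the groups did not overlap. The cKO difference was 0.17 for complex II, 0.22 for complex III, 0.38 for complex IV and 0.20 for complex V. After centring these differences became -0.00 for complex I, -0.08 for complex II, -0.03 for complex III, 0.13 for complex IV and -0.05 for complex V. Without Cox6b2 the cKO difference of complex IV was 0.26 as deposited and 0.01 after centring. Relative to all genes, the mean scores of complexes I and III in cKO lay within 1 SD of the control mean. Those of complexes II and V lay below it by more than the control SDs of 0.0299 and 0.0425. That of complex IV, with Cox6b2 included, lay above it by more than the control SD of 0.0723.
In dKO the scores against control were 0.04, -0.04, 0.09, 0.11 and 0.04 for complexes I to V as deposited, and 0.05, -0.02, 0.11, 0.13 and 0.06 after centring. Against cKO they were -0.21, -0.20, -0.13, -0.26 and -0.16 as deposited and 0.06, 0.07, 0.14, 0.01 and 0.11 after centring. Without Cox6b2 complex IV stood at -0.15 as deposited and 0.12 after centring. Both sets of differences share their embryos with the first set. The dKO embryos were spread most in complex III, at 6.0 ± 0.157 after centring, because embryo 1 stood at 6.23 and the others at 5.87 to 5.96. No p is given for these scores.

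**Figure D2:**
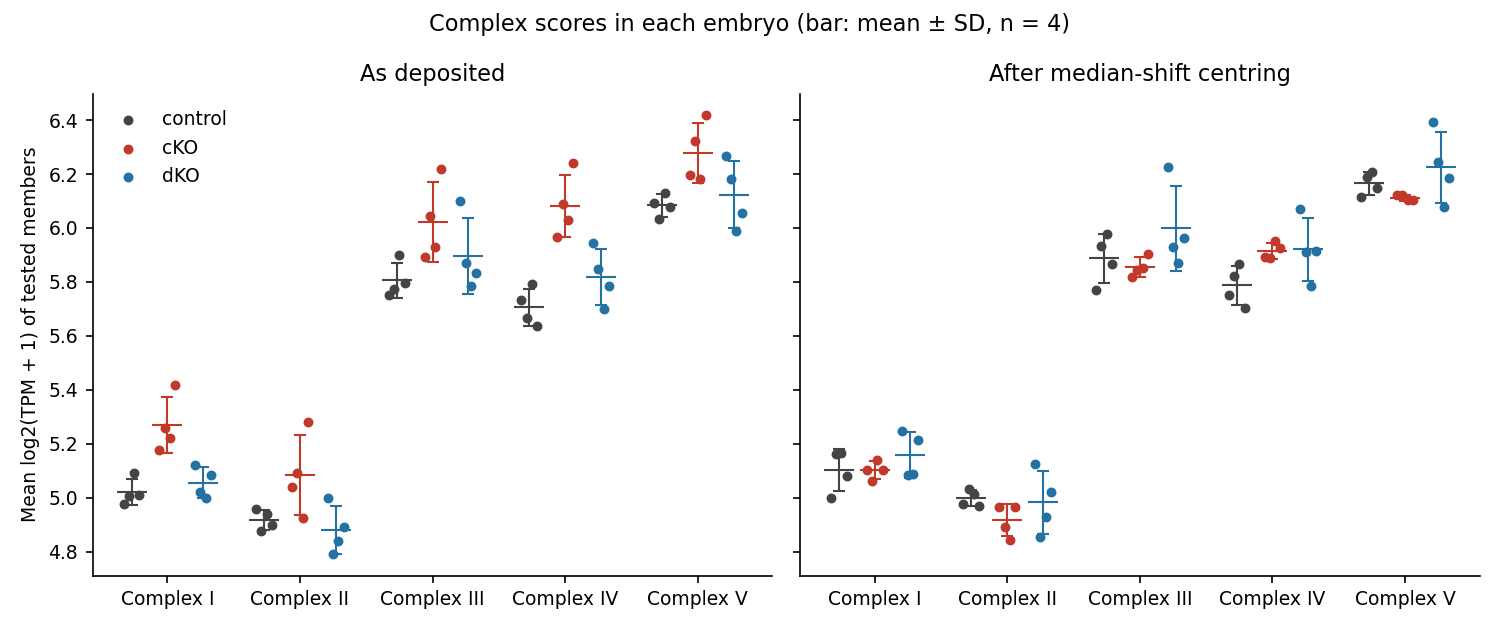
Mean log2(TPM + 1) of the tested members of complexes I to V in each embryo, as deposited (left) and after median-shift centring (right). Points are embryos and bars are means ± SD of 4; the cKO mean is the highest of the 3 in each complex as deposited, with overlap between embryos in complexes II, III and V, and in none of the 5 after centring.

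Against control, 23 of the 80 tested members were higher in cKO as deposited and none lower, by limma with a Benjamini-Hochberg adjusted p under 0.05. Among all genes tested 34.3% were called higher and 1.09% lower, so the share of members, 28.8%, lies near the background. Of the 23, complex I gave 14, complex IV 5, and complexes III and V 2 each. The median member differed by 0.24, against 0.25 over all genes. Above 0 were 76 of 80 members (95%), and 89.3% of all genes. Protein-coding rescaling, which gives the libraries equal coding totals, gave 7 called higher, all among the 23. Quantile normalization gave 4, of which 3 were among the 23 and Cox6b1 was gained. The shares of all genes called under these 2 scalings are not given here. With rescaling the median over all genes was still 0.12. After centring the median was -0.01 and only Cox6b2 was called higher, with none called lower, against 3.72% and 2.96% of all genes. At an unadjusted p under 0.05, 3 members were higher and 1 lower after centring, with no share of all genes given at that threshold. The lowest adjusted p among the members not called was 0.155 by limma. The count as deposited fell to 14 when control embryo 2, control embryo 4, cKO embryo 2 or cKO embryo 4 was left out.
Ndufa10, an accessory subunit of complex I, stood at 29.8, 27.7, 42.3 and 38.7 TPM in the controls and at 50.2, 50.2, 44.7 and 57.6 TPM in cKO. The groups did not overlap, although 2 control embryos were low. Its log2 difference was 0.55 ± 0.132 (SE) as deposited, with an adjusted p of 0.00944 by limma, and 0.30 after centring, with an adjusted p of 0.166. Ndufs5, Ndufa8 and the pseudogene Ndufs6b were the next largest in complex I. Ndufs5, an accessory subunit that faces the intermembrane space, stood at 44.6 to 50.2 TPM in controls and 59.4 to 68.3 TPM in cKO, a difference of 0.42 as deposited and 0.18 after centring. Ndufa8, of the same region, differed by 0.42 as deposited and 0.17 after centring. Ndufs6b differed by 0.41, with an adjusted p of 0.0885, and did not pass.
At the other end, Atp5g2, Ndufc2, Ndufb2, Atp5d and Ndufa3 had the smallest differences, from -0.25 to 0.01 as deposited and from -0.49 to -0.24 after centring. None passed the test on either scale. Atp5g2 stood at 47.6, 47.0, 42.7 and 19.1 TPM in cKO, so its value rested on embryo 4: without that embryo the difference as deposited was 0.06 in place of -0.25.

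Cox6b2 was the member that differed most. It encodes a form of complex IV subunit VIb known mainly from testis, where Cox6b1 is the form of most tissues. The gene lies at 4751792 to 4753094 on chromosome 7 (GRCm38, minus strand, 3 exons, ENSMUSG00000051811.14). It stood at 2.52, 1.71, 1.54 and 1.21 TPM in controls, at 8.75, 6.92, 8.41 and 8.54 TPM in cKO and at 1.28, 2.90, 1.97 and 2.44 TPM in dKO. Every cKO embryo lay above every other embryo, and controls and dKO overlapped. It rose in cKO by 1.75 ± 0.169 (SE) on the log2(TPM + 1) scale as deposited, with an adjusted p of 4.1e-05 by limma, and by 1.51 ± 0.168 after centring, with an adjusted p of 0.000209. Against cKO it was lower in dKO by 1.56 as deposited, with an adjusted p of 0.000128, and by 1.30 after centring, with an adjusted p of 0.0012. Against control the dKO difference was 0.19 as deposited and 0.21 after centring, with adjusted p-values of 0.59 and 0.488. Both cKO calls held with any 1 embryo left out.
Cox6b1 stood at 211, 226, 240.2 and 204 TPM in controls and at 255, 255, 264 and 317 TPM in cKO. That is a difference of 0.30 as deposited, with an adjusted p of 0.0582, and of 0.05 after centring, and it was called with quantile normalization alone among the 3 scalings. Cox6b2 thus made up 0.788% ± 0.267 (SD, n = 4) of the summed TPM of both genes in controls, 2.92% ± 0.337 in cKO and 0.866% ± 0.282 in dKO. The cKO embryos overlapped neither of the other groups in this share, and both exact permutation tests gave p = 0.0286, the smallest possible, with an adjusted p of 0.114 over 12 tests.
Of the genes annotated within 15000 bases of Cox6b2, Kmt5c, a histone methyltransferase gene on the plus strand, stood at 1.64 to 2.88 TPM in controls, 2.67 to 3.40 TPM in cKO and 1.90 to 2.99 TPM in dKO, with overlapping groups. Fam71e2, which ends on the same strand just before the start of Cox6b2, did not pass 0.0213 TPM, and the small RNA gene Gm24537 was listed at 0 throughout.
The 8 microglia markers moved with Cox6b2: their summed TPM was 12.4 to 15.7 in controls, 52.8 to 77.8 in cKO and 15.9 to 23.0 in dKO. All 8 were called higher in cKO on both scales, and none was at 0 in every control. Markers of neurons summed to 242 to 272 TPM in controls, 338 to 413 TPM in cKO and 174 to 261 TPM in dKO, and vessel markers to 8.53 to 11.9, 17.7 to 23.6 and 11.3 to 18.2 TPM. Of the 8 neuron markers 6 were called higher in cKO as deposited and 1 after centring, and of the 5 vessel markers tested 5 and 3. Over all genes tested 34.3% were called higher and 1.09% lower as deposited, and 3.72% and 2.96% after centring. Radial glia markers summed to 253 to 279.7 TPM in controls, 298 to 351 TPM in cKO and 274 to 280.4 TPM in dKO. Ventral telencephalon markers summed to 1.73 to 2.43, 3.43 to 5.29 and 1.68 to 3.65 TPM in the same order. For both sums every cKO embryo lay above every control. Of the 7 ventral markers only 1 reached the mean of 1 TPM needed for testing, so the others were low. The single radial glia genes were mixed, with a median cKO difference from control of 0.04 before centring and -0.21 after it. Of these 8 genes, 2 passed the test upward and 1 downward before centring. After it, none passed upward and 2 passed downward. Choroid plexus markers, at 37.9 to 95.8, 64.8 to 236 and 61.4 to 279.3 TPM, overlapped between groups. Proliferation and intermediate progenitor markers had median cKO differences from control of -0.02 and 0.09 before centring, and -0.27 and -0.16 after it. After centring, 1 of 8 proliferation markers and 2 of 5 intermediate progenitor markers passed downward, and 0 upward. In this bulk tissue a change in the number of cells of a type cannot be told apart from a change of RNA per cell, and the part of these cells in the rise of Cox6b2 was not tested.

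**Figure D3:**
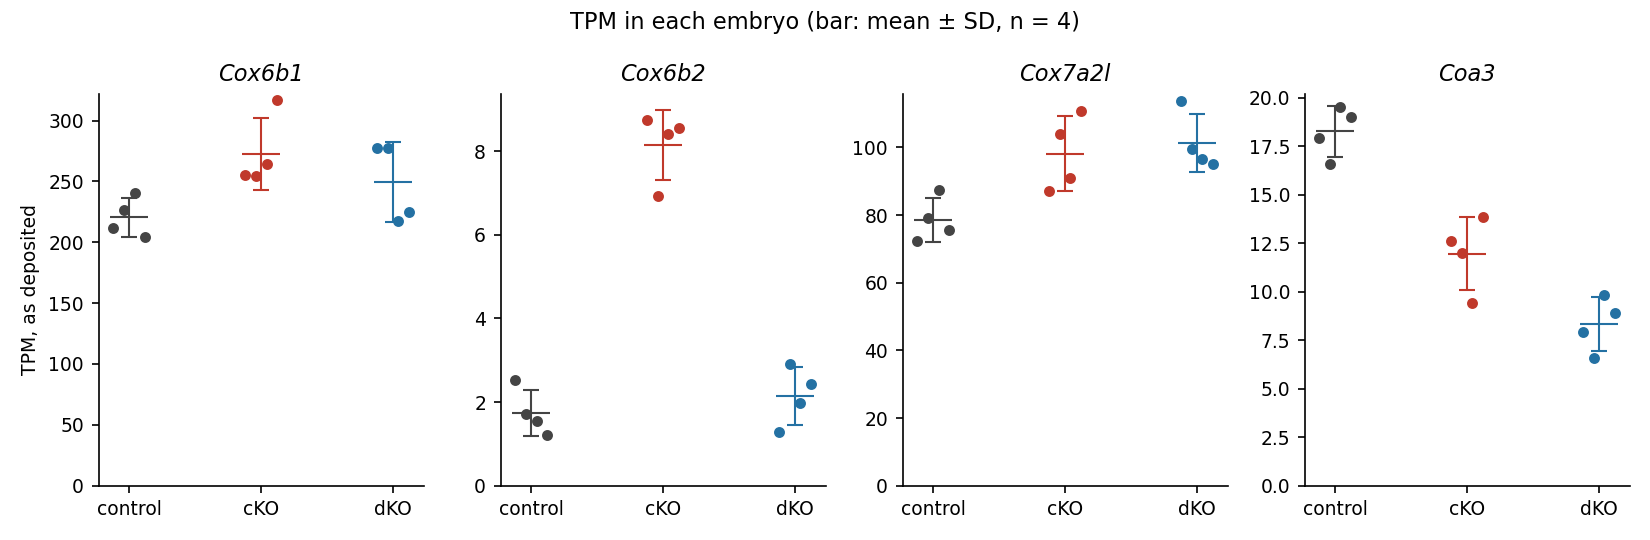
TPM as deposited of Cox6b1, Cox6b2, Cox7a2l and the complex IV assembly gene Coa3 in each embryo, with bars for the mean ± SD of 4 embryos per genotype and axes that start at 0. Cox6b2 is high in the 4 cKO embryos alone, and Coa3 is lower in all cKO and dKO embryos than in every control.

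Against control, no member was called in dKO as deposited, in either direction, where 1.79% of all genes were called higher and 3.4% lower by limma. At an unadjusted p under 0.05, 8 members were higher and 2 lower. The share of all genes at that threshold is not given here, so these counts cannot be set against the background. The median member differed by 0.05, against -0.01 over all genes. Above 0 were 55 of 80 members (68.8%), and 46.9% of all genes. With protein-coding rescaling 7 members were called higher, and with quantile normalization 4, with no share of all genes given for these 2 scalings. After centring 1 member, Cox7a2l, was called higher and none lower, against 3.74% and 4.69% of all genes, and the median was 0.07. Without dKO embryo 4, 1 member, Ndufa12, was called lower on both scales.
Cox7a2l (chromosome 17, 83501918 to 83517330, minus strand, GRCm38) stood at 72.5, 79.2, 87.5 and 75.5 TPM in controls, at 87.1, 104, 91.0 and 111 TPM in cKO and at 114, 99.5, 96.5 and 95.2 TPM in dKO. All dKO embryos lay above all controls, and cKO overlapped both. The dKO difference was 0.36 as deposited, with an adjusted p of 0.0671 by limma, and 0.38 ± 0.0908 (SE) after centring, with an adjusted p of 0.0263. The call after centring was lost without control embryo 1 or control embryo 4, where the adjusted p was 0.0541 and 0.0754.
Ndufa12, an accessory subunit of the peripheral arm of complex I, had the lowest dKO difference. It stood at 15.5, 15.4, 15.8 and 17.8 TPM in controls, 13.8, 17.8, 22.0 and 19.1 TPM in cKO and 6.45, 11.3, 9.89 and 15.8 TPM in dKO. A single dKO embryo, the fourth, lay among the controls. The difference was -0.58 as deposited and -0.57 after centring, with adjusted p-values of 0.124 and 0.112. Without that embryo it was -0.77 as deposited, with an adjusted p of 0.0372.
Next lowest were Atp5d, Sdhb, Sdha and Ndufb2, from -0.26 to -0.18 as deposited, and none passed. Sdhb stood at 28.8, 27, 25.6 and 24.1 TPM in controls and 21.3, 20.1, 22.0 and 24.8 TPM in dKO, where 1 embryo reached the control range. Ndufa10, Cox7a2l, Ndufa7, Ndufa13 and Ndufa1 were the highest, from 0.25 to 0.40. Ndufa10 in dKO, at 41.3 to 47.4 TPM, overlapped the controls. Ndufa13, also known as Grim19, stood at 35.2 to 37.2 TPM in controls and 40.6 to 47.4 TPM in dKO without overlap, with an adjusted p of 0.0737 as deposited and 0.0509 after centring.

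Against cKO, 18 members were lower in dKO as deposited and none higher, where 38.8% of all genes were called lower and 0.612% higher by limma. The share of members called lower was 22.5%. Complex I gave 11 of the 18, complex V 3, complex II 2, and complexes III and IV 1 each. The median member differed by -0.18, against -0.26 over all genes. After centring only Cox6b2 was lower and none was higher, against 3.83% and 2.1% of all genes, and the median member was at 0.09. The count of 18 became 10 without cKO embryo 2 and 11 without cKO embryo 4.
After Cox6b2, the lowest differences were those of Ndufa12, Ndufa8, Ndufb8 and Ndufs3. Ndufa12 differed by -0.73 as deposited, with an adjusted p of 0.0155, and by -0.46 after centring, with an adjusted p of 0.197. Ndufb8, a subunit of the membrane arm, stood at 80.7, 82.3, 76.5 and 99.95 TPM in cKO and 69.6, 63.5, 59.8 and 62.9 TPM in dKO. It differed by -0.40 as deposited and -0.13 after centring, and was called as deposited and with quantile normalization but not after centring. Ndufa8 and Ndufs3, a core subunit of the peripheral arm, passed as deposited at -0.41 and -0.37, and stood at -0.14 and -0.10 after centring. The highest differences, of Atp5g2, Cox7a2, Cox7a2l, Atp5l and Uqcrfs1, ran from -0.01 to 0.17 as deposited and none passed. Uqcrfs1, the Rieske iron-sulfur protein of complex III, stood at 47.4 TPM in dKO embryo 1 and at 28.2 to 33.1 TPM in the other dKO embryos. These 2 comparisons with cKO share the cKO embryos, so the fall of 18 members here and the rise of 23 above are not independent.

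**Figure D4:**
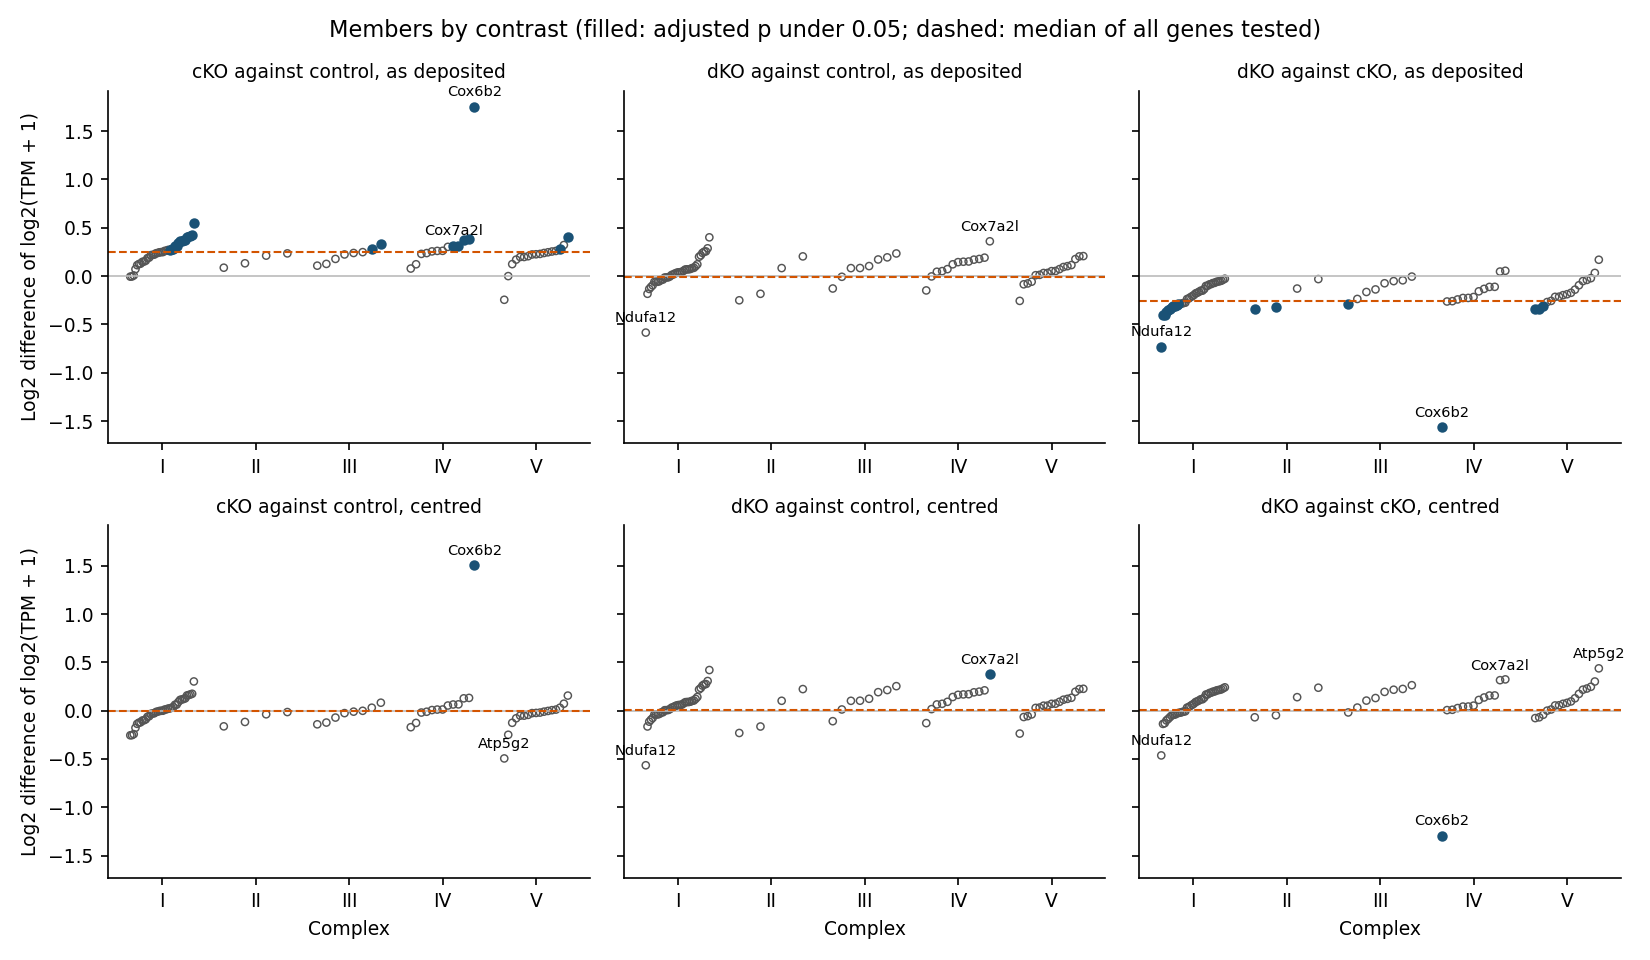
Log2 difference of each tested member by complex for the 3 contrasts, as deposited (top) and after median-shift centring (bottom). Filled points have an adjusted p under 0.05 and the dashed line is the median of all genes tested; as deposited the members lie around that line, and after centring Cox6b2 and Cox7a2l are the called members.

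The genes that help build the complexes were described beside their products. Of 46 listed assembly factors 44 were tested. In cKO against control 14 were higher and 1 lower as deposited, with a median of 0.21. Among all genes tested 34.3% were higher and 1.09% lower. After centring none was higher and 1 was lower, against 3.72% and 2.96% of all genes, and the median was -0.04. Against control in dKO none was higher and 1 was lower as deposited, against 1.79% and 3.4% of all genes. The median was 0.03. After centring 2 were higher and 1 lower in dKO, against 3.74% and 4.69% of all genes, and the median was 0.05.
The gene that fell in both genotypes was Coa3, which encodes an inner membrane factor needed early in the assembly of complex IV around its mitochondrially encoded core subunit. It stood at 17.9, 16.6, 19.5 and 19.0 TPM in controls, at 12.6, 12, 9.40 and 13.8 TPM in cKO and at 7.91, 6.59, 9.84 and 8.92 TPM in dKO. All 8 mutant embryos were below all 4 controls. In cKO it was lower by 0.58 as deposited and by 0.83 ± 0.116 (SE) after centring, with adjusted p-values of 0.00644 and 0.00105 by limma. In dKO it was lower by 1.06 as deposited and by 1.04 after centring, with adjusted p-values of 0.000848 and 0.000362. Each of its calls after centring held in the 16 alternatives run for it.
Other assembly factors were called after centring. Coa5, another factor of complex IV, stood at 6.18 to 7.51 TPM in controls and 8.02 to 9.59 TPM in dKO, a rise of 0.33 after centring with an adjusted p of 0.014, which did not pass as deposited. Cox20, a chaperone of the mitochondrially encoded subunit COX2, fell by 0.45 from cKO to dKO after centring, with an adjusted p of 0.0173. It stood at 16.4 to 20.9 TPM in cKO, 10.3 to 11.3 TPM in dKO and 12 to 14.8 TPM in controls, and its call was lost without cKO embryo 2. Timmdc1, a factor of complex I, was higher in dKO by 0.59 after centring, with an adjusted p of 0.0369 against control, and dKO embryo 1, at 5.43 TPM, lay in the control range of 5.37 to 5.82 TPM. That call was lost as deposited and in 9 of 12 fits that left out 1 embryo.
Genes that feed or regulate the chain gave few calls after centring. Of 12 TCA cycle genes, Idh3g, a subunit of isocitrate dehydrogenase, stood at 35.0 to 37.7 TPM in controls and 27.2 to 30.0 TPM in dKO. It was lower in dKO by 0.30, with an adjusted p of 0.0112 by limma, and stayed called in each fit without 1 embryo. Of 16 glycolysis genes, Pfkp, a form of phosphofructokinase, was higher in cKO by 0.62, with an adjusted p of 0.0351. It stood at 1.93 to 3.10 TPM in controls and 4.66 to 5.87 TPM in cKO, and its adjusted p ran from 0.017 to 0.107 with 1 embryo left out, losing the call without control 1, 3 or 4 or cKO 1, 2 or 3. Eno1, an enolase, was higher in dKO than in control by 0.39, which failed as deposited and in 9 of 12 fits without 1 embryo (adjusted p 0.0122 to 0.0941). Against cKO the dKO difference of Eno1 was 0.57, with an adjusted p of 0.00986, and it failed as deposited alone. Among 10 tested regulators, none was called against control after centring. Esrra, a nuclear receptor that acts on many of these genes, differed between dKO and cKO by -0.36, with an adjusted p of 0.0286, a call lost without cKO 1, 2 or 4 or dKO 1, 3 or 4. Nrf1 stood at 6.10, 6.61 and 4.89 TPM on average in control, cKO and dKO, with no call against control. Of 15 other mitochondrial proteins, such as the porins and the import machinery, 5 were higher in cKO as deposited, where 34.3% of all genes were, and none after centring.
The 13 protein genes of mitochondrial DNA, which complete the same complexes, gave no call in any contrast on either scale. In cKO against control their median difference was 0.07 as deposited and -0.17 after centring. The cytosolic ribosomal protein genes, also short and abundant, had medians of 0.11 and -0.14, with 5 of 82 called higher as deposited against 34.3% of all genes, and 0 higher and 1 lower after centring. Coding genes with transcripts under 1000 nt had medians of 0.22 and -0.03, close to the members' 0.24 and -0.01. These are side by side values with no test of the lists against each other.

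**Figure D5:**
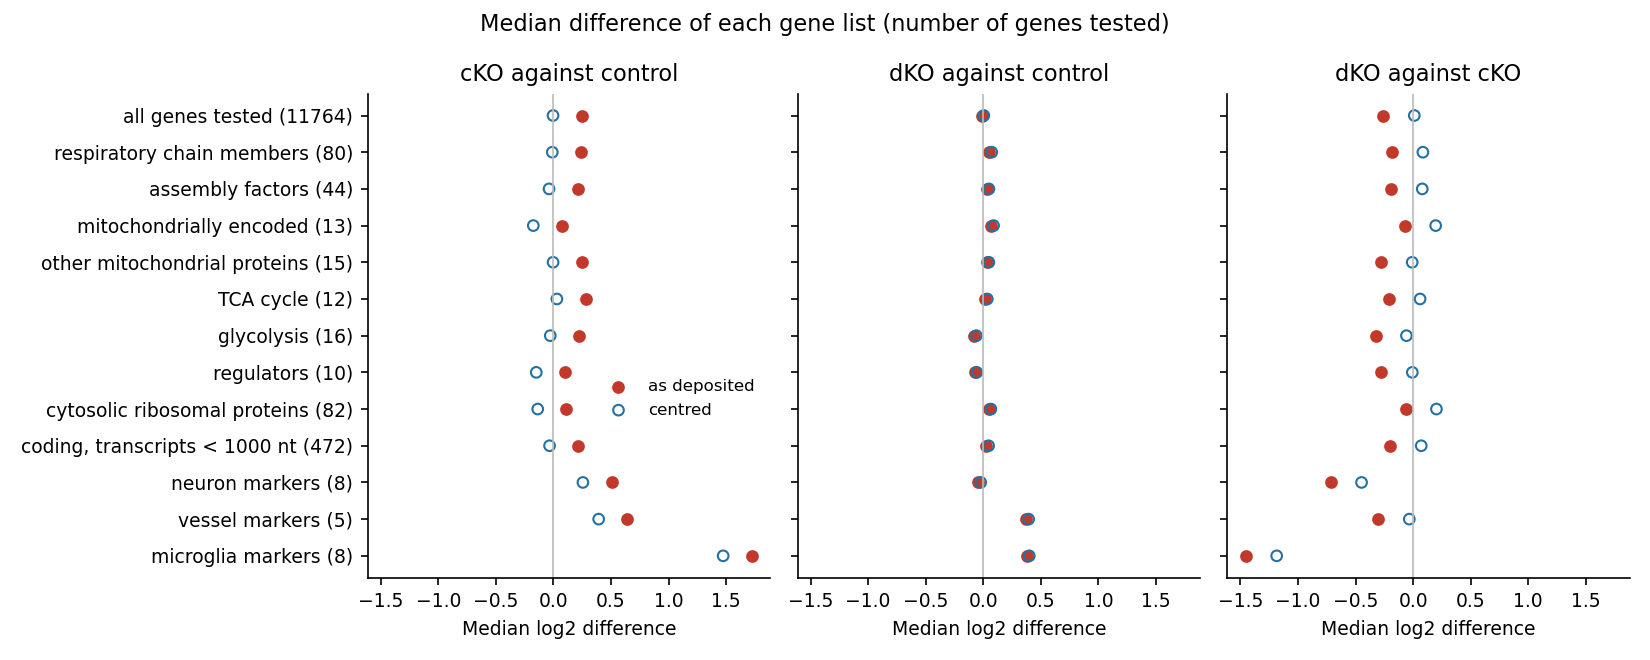
Median log2 difference of each gene list for the 3 contrasts, with the number of genes tested in brackets, as deposited (filled) and after median-shift centring (open). In cKO the respiratory chain members lie beside the median of all genes, while the microglia markers lie at 1.72 as deposited and 1.47 after centring.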

How the data were processed

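The 12 libraries, 4 per genotype, were stranded total RNA from Trizol-lysed pallia, sequenced on a NextSeq500, per the labels' protocols. HISAT2 and mm10 come from the submitters' processing notes. The quantifier, the annotation and the handling of shared reads are not given in the sources used here. The authors deposited 1 table of TPM per embryo. This unit is inferred, as each table sums to 1000000. TPM keeps no depth, so counting error cannot be given.

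Limma 3.58.1 (R 4.3.3; lmFit, then eBayes with trend) was run on log2(TPM + 1). All 3 genotypes entered 1 fit of 11764 genes, those averaging 1 TPM or more, and calls needed a Benjamini-Hochberg adjusted p under 0.05 across that whole set. Differences are in log2(TPM + 1) units, in which changes of low genes look too small. On simulated data for cKO against control, 178 of 200 genes changed by 1 log2 unit were recovered, with 7 false calls among 11764 genes. That simulation drew each gene independently and held no shift common to all genes, unlike the deposited values. With a shift added to cKO and then centred, the counts were again 178 and 7. Without Cox6b2 the largest member difference in cKO was 0.55, so this recovery does not describe changes of the members' size. Shares within isoform sets were compared by exact permutation tests. Gene positions are from GENCODE M21 (54106 symbols matched).

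Named members were the 5 highest and 5 lowest differences per contrast, the 2 highest levels per complex, those called after centring, and the tissue isoform sets. Members with printed upstream bases, other than Cox6b2, were picked by their motif matches. Other pathway genes were named where called after centring; Nrf1, the Cox6b2 neighbours and the members used to show ranges were chosen after their values were seen. The members, lists and rules were chosen with earlier results of these data known.

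Alternatives were median-shift centring, scaling libraries to equal protein-coding totals, quantile normalization, a pseudocount of 0.1, no filter, a minimum mean of 5 TPM, 2-group fits, the replicate number as a block, leaving out each embryo and, for scores, other summaries. Those for pathway genes were chosen after seeing the data.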

Additional observations from a re-analysis of the deposited data

Results flagged for a closer look

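In 13 of the 123 sets of 4 embryos examined (each named member that was tested, and each complex score, in every genotype), 1 embryo stood apart: its gap to the nearest other embryo, as a share of the whole range of the 4, was above Dixon's 95% critical value. Chance alone flags about 1 set in 20, or 6.15 of 123. None of the 13 was a complex score. Embryo 4 of cKO gave 4 of them. It was high for Atp5k at 210.1 TPM (gap 0.951), for Cox6b1 at 317 TPM (gap 0.843) and for Ndufa4 at 221 TPM (gap 0.833), and low for Atp5g2 at 19.1 TPM (gap 0.83). Embryo 1 of dKO gave 4 more, all high: Ndufs5 at 58.5 TPM (gap 0.985), Sdhd at 47.5 TPM (gap 0.839), Uqcr11 at 125 TPM (gap 0.890) and Uqcrh at 241 TPM (gap 0.858). In controls, embryo 3 was low for Atp5g2 at 32.8 TPM (gap 0.968), embryo 1 high for Cox4i1 at 74.8 TPM (gap 0.872) and embryo 4 high for Ndufa12 at 17.8 TPM (gap 0.854). The last 2 sets were Ndufa3 in cKO, with embryo 3 high at 27.4 TPM (gap 0.962), and Ndufa10 in dKO, with embryo 2 low at 41.3 TPM (gap 0.845). The cKO 4 library also had the largest coding share, 20%.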

How the results depend on the processing

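The calls of members against control followed the scaling. The count of 23 members higher in cKO was 1 with median-shift centring, 7 with protein-coding rescaling and 4 with quantile normalization (3 of the 23, and Cox6b1), and 14 to 30 with 1 embryo left out. In dKO against control the 0 members called higher became 1, 7 and 4 under the same 3 scalings, and 0 to 2 with 1 embryo left out. After centring that count ran from 0 to 3 with 1 embryo left out. The count of members lower in dKO than in control was 0 to 1 with 1 embryo left out, on both scales. For dKO against cKO the 18 members called lower became 1, 1 and 2 under the 3 scalings and 10 to 23 with 1 embryo left out. None was higher as deposited, 1 was with rescaling, and 0 to 1 after centring with 1 embryo left out. The cause was not tested. Shares of all genes called are given only as deposited and after centring. Counts under the other settings have no such share beside them. The Cox6b2 calls for both contrasts with cKO held under every alternative run for them.

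With the replicate block, 15 members were higher in cKO, and with block and centring 0 were higher in dKO. Same-numbered embryos correlated in their deviations at -0.0954 to 0.0745, which cannot tell whether they shared a litter or a batch.

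Score differences for cKO against control, with centring, rescaling and quantile normalization in that order, were -0.0011, 0.0972 and 0.0562 for complex I, and -0.0826, 0.0151 and -0.0417 for complex II. They were -0.0323, 0.0640 and 0.0681 for complex III, 0.127, 0.225 and 0.236 for complex IV, and -0.0529, 0.0462 and 0.0784 for complex V. For dKO against cKO they were 0.0559, 0.0029 and 0.0034 for complex I, 0.0655, 0.0134 and 0.0270 for complex II, and 0.144, 0.0938 and 0.0480 for complex III. They were 0.0066, -0.0455 and -0.102 for complex IV, and 0.113, 0.0593 and -0.0108 for complex V. Complex I in dKO against control was 0.1002 with rescaling and 0.105 with the median over members, which gave -0.123 against cKO. That median gave 0.294 for complex V in cKO, and a minimum of 5 TPM gave 0.261 for complex IV.

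The differences that changed sign were not called as deposited, though Cox7a2l for dKO against cKO was called with rescaling (0.27, limma adjusted p of 0.0495). With 1 embryo left out, cKO against control, Atp5g2 ran from -0.381 to 0.0588, Ndufc2 from -0.0341 to 0.0429, Ndufb2 from -0.134 to 0.0587, Atp5d from -0.104 to 0.160 and Ndufa3 from -0.0609 to 0.0793. For dKO against cKO, Uqcrfs1 ran from -0.165 to 0.0813, Atp5l from -0.0950 to 0.149, Cox7a2l from -0.0102 to 0.107, Cox7a2 from -0.0453 to 0.127 and Atp5g2 from -0.135 to 0.289. Atp5d was 0.0011 with a pseudocount of 0.1. Ndufa3 in cKO was -0.243, -0.143 and -0.218, and Uqcrfs1 in dKO against cKO 0.264, 0.212 and 0.223, under the 3 scalings. TPM gives no depth, so counting error in low members such as Cox6b2 and Atp5s is unknown.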
